A study of Homo sapiens with 6 samples.

Results

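The 9 genes described here encode pore-forming alpha-1 subunits of voltage-gated calcium channels: CACNA1A, CACNA1B, CACNA1C, CACNA1D, CACNA1E, CACNA1F, CACNA1G, CACNA1H and CACNA1I. They were taken by symbol from a deposited table of 50883 genes, and all 9 were found in it. Their RNA was measured in cultures of D283, an established line of human medulloblastoma cells, which derive from a tumour of the cerebellum. The 3 OTX2 knockout cultures received a GFP-expressing lentivirus that encodes a guide RNA against OTX2, a homeobox gene that acts in brain and retinal development. The 3 control cultures received the same kind of virus with a guide RNA that targets no gene. All were collected after 7 days, and total RNA was sequenced, giving 54540645 to 62166870 counts per library. The labels do not state the share of edited cells, the number of guides or whether single clones were grown. They describe the infection as done in triplicate in 1 line, so the p-values measure the spread between such cultures, which may be technical.

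Each alpha-1 subunit folds into 4 linked domains that together form the voltage sensor and the calcium pore, and its gene determines the type of current. CaV1 channels carry L-type current, which is long lasting and couples depolarisation to contraction, gene expression and, in photoreceptors, tonic transmitter release. CaV2 channels carry the P/Q-, N- and R-type currents that trigger transmitter release at nerve terminals. CaV3 channels open near the resting potential, carry T-type current and shape rhythmic and burst firing. CaV1 and CaV2 pores assemble with auxiliary beta and alpha2delta subunits, whereas CaV3 pores can function without them.

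The check of the labels was weak. OTX2 RNA was at 765, 824 and 887 CPM (counts scaled to a common library size) in OTX2 knockout libraries, against 1002, 979 and 909 CPM in control libraries. The groups did not overlap, and the log2 fold change was -0.22 (SE 0.058, edgeR quasi-likelihood adjusted p = 0.00646). RNA can persist after an edit, so this level does not measure loss of the protein. Markers of Group 3 medulloblastoma were present: the 8 listed genes summed to between 3247 and 3837 CPM in OTX2 knockout libraries and between 4643 and 4970 CPM in control libraries, and all 8 fell, where 18.5% of all tested genes did. OTX2 itself is one of these 8 and part of their sum. Control replicate 1 had 0.764% of its counts in mitochondrially encoded genes, against 0.440% to 0.601% in the other 5 libraries.

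The pore-forming genes moved in both directions. The CaV2 genes CACNA1A, CACNA1B and CACNA1E rose in OTX2 knockout cells, while the CaV3 genes CACNA1G and CACNA1I and the CaV1 gene CACNA1F fell. CACNA1C did not pass the test. Of the 9 genes, 7 passed the filter on low counts, and CACNA1D and CACNA1H did not. The test called 3 genes up and 3 down, where 21.2% of all 18420 tested genes rose and 18.5% fell (39.7% in either direction). A call here is an adjusted p under 0.05 by the Benjamini-Hochberg method in edgeR's quasi-likelihood test over all tested genes. Over all genes the counts were 3908 up and 3404 down, but 5210 up and 2034 down when scaled by library totals alone, which left the 6 member calls in place. The 2 groups were fully separated in CPM for 6 of these 7 genes, as were 49.2% of all 18420 genes, and also for CACNA1H. The 3 genes that fell had the highest levels per kilobase of exon. CACNA1A passed the filter only through its OTX2 knockout libraries. Entry in this way favours a rise without fixing the call, so the CACNA1A call adds nothing to the count. Of the 3908 rises over all genes, 513 entered in the same way, and of the 3404 falls, 47 entered only through control libraries. Such genes are named where a list holds them among its calls.

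**Figure D1:**
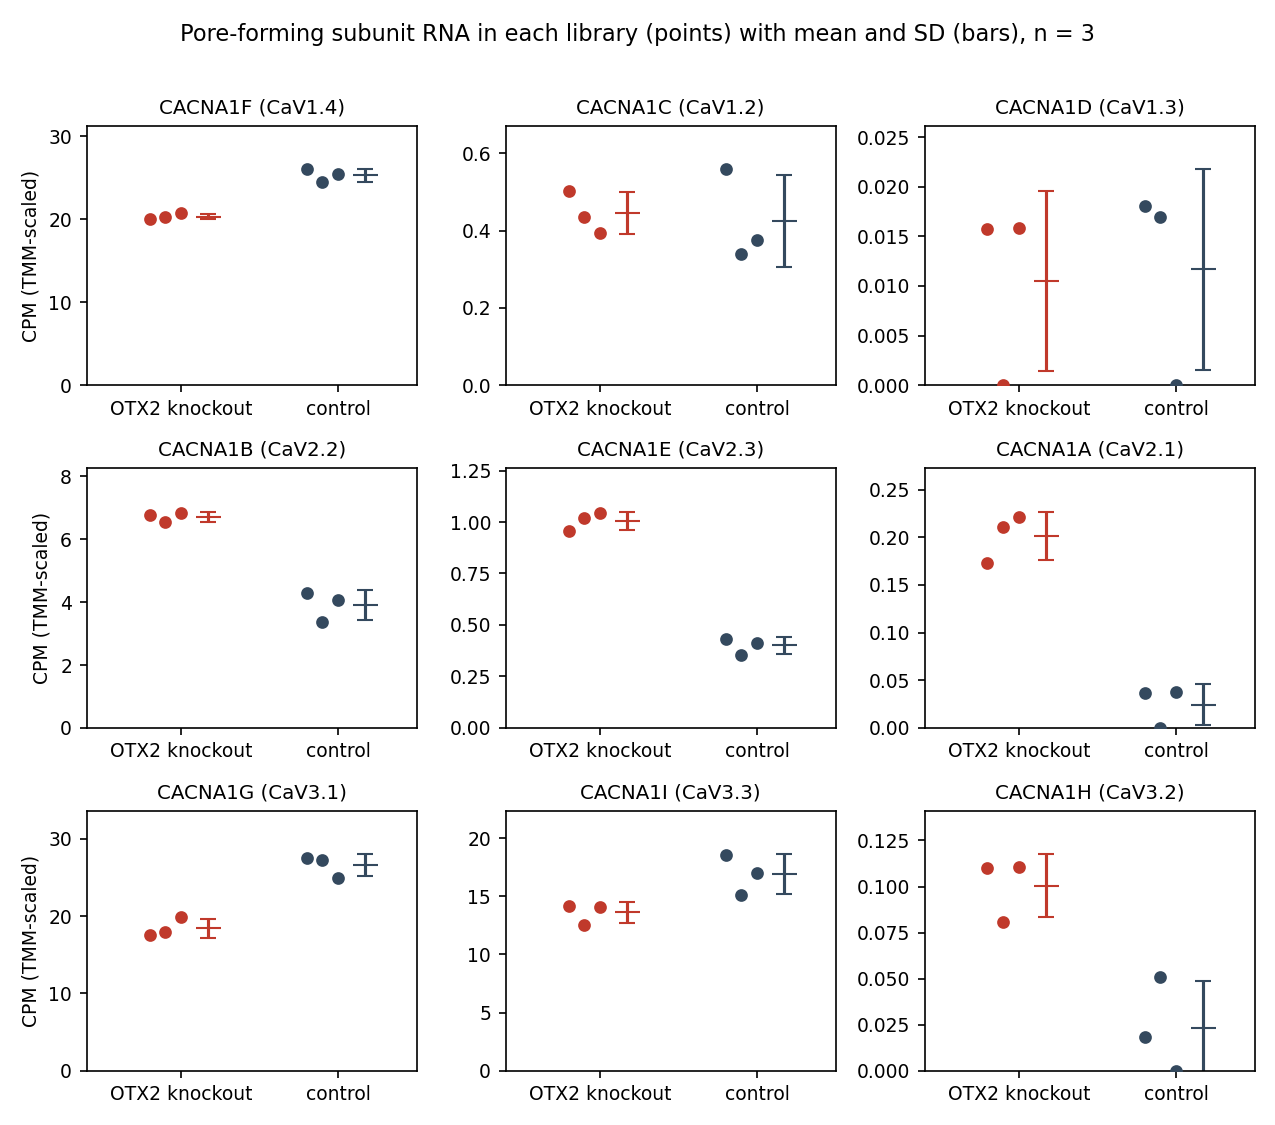
CPM of each pore-forming gene in each of the 3 OTX2 knockout and 3 control libraries (points), with mean and SD beside them (bars, cut at 0). Rows hold CaV1, CaV2 and CaV3 genes, and each panel has its own axis starting at 0. The OTX2 knockout points lie above control for CACNA1B, CACNA1E, CACNA1A and CACNA1H, below control for CACNA1F, CACNA1G and CACNA1I, and among the control points for CACNA1C and CACNA1D.

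Promoter windows of 4 genes are shown because they represent members that moved in opposite directions. No window was matched for CACNA1G, which also fell. Each window shown runs from 250 bases before to 50 bases after the gene start in RefSeq (GRCh38.p14), 5′ to 3′ on the gene's strand. Capitals mark TAATCC, the core recognised by OTX2 and its relative CRX, and CAGATG, an E-box bound by neurogenic factors, on either strand, where CAGATG appears as CATCTG when it lies on the opposite one. CACNA1F (chrX:49233291-49233590, minus strand) and CACNA1I (chr22:39570503-39570802, plus strand) fell, and CACNA1B (chr9:137877532-137877831, plus strand) and CACNA1E (chr1:181483267-181483566, plus strand) rose.
CACNA1F: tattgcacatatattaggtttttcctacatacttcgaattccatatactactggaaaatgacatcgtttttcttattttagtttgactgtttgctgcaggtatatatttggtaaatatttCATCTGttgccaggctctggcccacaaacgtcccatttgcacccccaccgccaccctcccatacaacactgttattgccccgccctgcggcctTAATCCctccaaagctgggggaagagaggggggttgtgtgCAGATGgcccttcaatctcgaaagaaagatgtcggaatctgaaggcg
CACNA1I: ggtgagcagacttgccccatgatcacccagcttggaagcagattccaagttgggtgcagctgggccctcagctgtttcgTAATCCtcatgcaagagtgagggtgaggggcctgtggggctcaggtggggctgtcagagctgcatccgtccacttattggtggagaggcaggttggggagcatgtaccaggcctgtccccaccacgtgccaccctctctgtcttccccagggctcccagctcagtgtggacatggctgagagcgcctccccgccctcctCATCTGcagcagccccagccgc
CACNA1B: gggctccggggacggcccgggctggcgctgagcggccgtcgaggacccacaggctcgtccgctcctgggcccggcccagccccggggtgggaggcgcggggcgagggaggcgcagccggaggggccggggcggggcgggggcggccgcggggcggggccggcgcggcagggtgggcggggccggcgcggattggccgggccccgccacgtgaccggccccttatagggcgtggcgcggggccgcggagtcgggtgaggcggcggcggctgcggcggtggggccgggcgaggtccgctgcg
CACNA1E: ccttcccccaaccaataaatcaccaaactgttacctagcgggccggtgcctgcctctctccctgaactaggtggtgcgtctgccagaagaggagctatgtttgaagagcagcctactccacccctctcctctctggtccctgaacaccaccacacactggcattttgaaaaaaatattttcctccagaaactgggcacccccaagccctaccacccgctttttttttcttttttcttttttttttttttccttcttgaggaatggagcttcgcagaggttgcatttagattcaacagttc

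No RefSeq window was matched for CACNA1G or CACNA1H, so their promoters were not examined. Windows were matched for 7 of the 9 genes. TAATCC occurred in 2 of these 7, CACNA1F and CACNA1I, and in 6.36% of all 35116 windows. Its first base lay at -37 in CACNA1F and at -171 in CACNA1I, counted from the gene start with no position 0. CAGATG occurred in 3 of the 7, namely CACNA1F, CACNA1I and CACNA1C, and in 14.7% of all windows. CACGTG, the E-box of MYC and MAX, occurred in CACNA1B at -45 and in CACNA1I at -49, and in 7.26% of all windows. The full cAMP response element TGACGTCA occurred in 0 of the 7 and in 1.85% of all windows. The motifs do not overlap each other within these windows. A match of letters is a description, and binding was not measured. The windows also differed in base composition, with 85.3% G and C in CACNA1B, 62.7% in CACNA1I, 48.0% in CACNA1E and 46.0% in CACNA1F, against a median of 58.7% over all windows. GENCODE release 29 starts the CACNA1A, CACNA1C, CACNA1D and CACNA1E loci upstream of these RefSeq starts, so other promoters of those genes lie outside the windows. Its start of CACNA1F, at 49233371, also lies upstream of the RefSeq start but within the window.

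Among the CaV1 genes, CACNA1F encodes CaV1.4, the L-type channel of photoreceptor terminals. The gene spans 28.3 kb of chromosome X from 49205063 to 49233371 (GRCh38, minus strand, GENCODE release 29). CACNA1F had 20.05, 20.2 and 20.7 CPM in OTX2 knockout libraries, against 26.02, 24.5 and 25.4 CPM in control libraries. Every OTX2 knockout library lay below every control library. CACNA1F fell 1.24-fold, with a log2 fold change of -0.32 (SE 0.052, edgeR quasi-likelihood adjusted p = 0.000193). The 95% interval of that log2 fold change ran from -0.43 to -0.20. For comparison within the same libraries, where 18.5% of all tested genes fell, 9 of 10 tested photoreceptor markers fell and 0 rose. The median of their log2 fold changes was -0.99, where that of all tested genes was 0.0062. The summed level of these photoreceptor markers was 307 to 344 CPM in OTX2 knockout libraries and 419 to 443 CPM in control libraries. CRX and NRL are in this list and also among the Group 3 markers, so their falls are counted in both. The part of the photoreceptor programme in the CACNA1F level was not tested. In bulk RNA, fewer cells expressing a gene and less RNA per cell cannot be told apart.

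The other CaV1 genes among the 9, CACNA1C and CACNA1D, were near the limit of detection. CACNA1C encodes CaV1.2, the L-type channel of heart, smooth muscle and many neurons, and lies on chromosome 12 from 1970786 to 2697950 (plus strand). It had 32, 27 and 25 counts in OTX2 knockout libraries, against 31, 20 and 20 counts in control libraries, and the groups overlapped. Its log2 fold change was 0.070 (SE 0.26, edgeR quasi-likelihood adjusted p = 0.862), with a 95% interval from -0.49 to 0.63, so a change in either direction within that range could not be seen at this depth. The sign of that value turned without OTX2 knockout replicate 1 (-0.026), control replicate 2 (-0.078) or control replicate 3 (-0.0093). CACNA1D encodes CaV1.3, which activates at more negative voltages and serves neurons, endocrine cells and inner hair cells. CACNA1D (chromosome 3, 53328963 to 53813733, plus strand) had 1, 0 and 1 counts in OTX2 knockout libraries and 1, 1 and 0 counts in control libraries. Its exons share 1399 bases with CHDH on the opposite strand, which had 104 counts over all libraries, and strand-specific counting was not stated, so the CACNA1D count is uncertain.

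Among the CaV2 genes, CACNA1B encodes CaV2.2, the N-type channel of nerve terminals, and lies on chromosome 9 from 137877789 to 138124624 (plus strand). CACNA1B had 6.77, 6.53 and 6.84 CPM in OTX2 knockout libraries, against 4.28, 3.35 and 4.07 CPM in control libraries. The groups were well apart, with the lowest OTX2 knockout library above the highest control library. CACNA1B rose 1.72-fold, with a log2 fold change of 0.79 (SE 0.098, edgeR quasi-likelihood adjusted p = 1.31e-05).

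CACNA1E rose by a larger factor. It encodes CaV2.3, the R-type channel of neurons and endocrine cells, and its locus on chromosome 1 extends from 181317690 to 181808084 (plus strand). CACNA1E had 61, 63 and 66 counts in OTX2 knockout libraries, against 24, 21 and 22 counts in control libraries. That corresponds to 1.01 ± 0.0437 CPM in OTX2 knockout and 0.401 ± 0.0402 CPM in control libraries (SD, n = 3 each). The rise was 2.51-fold, with a log2 fold change of 1.33 (SE 0.20, edgeR quasi-likelihood adjusted p = 8.27e-05).

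CACNA1A was nearly silent in control cells. It encodes CaV2.1, the P/Q-type channel that dominates transmission from cerebellar Purkinje and granule neurons, and lies on chromosome 19 from 13206442 to 13633025 (minus strand). CACNA1A had 11, 13 and 14 counts in OTX2 knockout libraries, against 2, 0 and 2 counts in control libraries. Its log2 fold change was 2.97 (SE 0.59, edgeR quasi-likelihood adjusted p = 0.00088). The ratio of summed counts, 38 in OTX2 knockout and 4 in control, was 8.44 after scaling, with a 95% counting interval from 3.04 to 32.5. The direction held in every OTX2 knockout library, while the size of the change is poorly fixed.

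Among the CaV3 genes, CACNA1G fell most. It encodes CaV3.1, the T-type channel of thalamic relay and cerebellar neurons, and lies on chromosome 17 from 50561068 to 50627474 (plus strand). CACNA1G had 17.5, 17.9 and 19.9 CPM in OTX2 knockout libraries, against 27.5, 27.2 and 25.0 CPM in control libraries. The groups did not overlap, and CACNA1G fell 1.44-fold, with a log2 fold change of -0.53 (SE 0.062, edgeR quasi-likelihood adjusted p = 7.82e-06). This was the smallest adjusted p among the 9 genes.

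CACNA1I fell less. It encodes CaV3.3, a slowly inactivating T-type channel of thalamic reticular neurons, and lies on chromosome 22 from 39570753 to 39689737 (plus strand). CACNA1I had 14.2, 12.6 and 14.1 CPM in OTX2 knockout libraries, against 18.5, 15.1 and 17.0 CPM in control libraries. The highest OTX2 knockout library lay just below the lowest control library. The fall was 1.24-fold, with a log2 fold change of -0.31 (SE 0.077, edgeR quasi-likelihood adjusted p = 0.00488). The difference in response between CACNA1G and CACNA1I was not tested, and the 95% intervals of their log2 fold changes, -0.66 to -0.40 for CACNA1G and -0.48 to -0.15 for CACNA1I, overlapped.

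The last T-type gene, CACNA1H, encodes CaV3.2, known from sensory neurons. CACNA1H (chromosome 16, 1153121 to 1221772, plus strand) had 7, 5 and 7 counts in OTX2 knockout libraries, against 1, 3 and 0 counts in control libraries. The ratio of the summed counts, 19 in OTX2 knockout and 4 in control, was 4.22 after scaling, with a 95% counting interval from 1.402 to 17.1. CACNA1H did not reach the test, and with no filter its log2 fold change was 1.99 (edgeR quasi-likelihood adjusted p = 0.0634). It was thus the only one of the 3 CaV3 genes whose value was higher in OTX2 knockout cells, and that difference did not pass.

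Levels of different genes were compared per kilobase of merged exons (RPKM, that is CPM divided by exon length in kilobases). CACNA1F was the highest, at 2.93 ± 0.0502 RPKM in OTX2 knockout and 3.65 ± 0.110 RPKM in control libraries (SD, n = 3 each). CACNA1G followed at 1.90 ± 0.130 RPKM in OTX2 knockout and 2.74 ± 0.143 RPKM in control libraries, then CACNA1I at 1.26 ± 0.0832 RPKM in OTX2 knockout and 1.56 ± 0.158 RPKM in control libraries. CACNA1B came after them, at 0.678 ± 0.0162 RPKM in OTX2 knockout and 0.394 ± 0.0490 RPKM in control libraries. These 4 genes kept this order in all 6 libraries, with gaps larger than their SD. The remaining 5 genes were each below 0.06 RPKM in every library. CACNA1E and CACNA1C were the highest of these, at 0.0551 and 0.0233 RPKM in OTX2 knockout libraries, and at 0.0219 and 0.0222 RPKM in control libraries, where they did not differ beyond their spread. CACNA1H, CACNA1A and CACNA1D were at or below 0.0117 RPKM on average in both groups. The place of CACNA1A among these depends on length, because its merged exons add up to 43.2 kb while its longest transcript measures 8.66 kb.

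By class among the 9 genes, CaV2 RNA made up a larger part of their sum, and CaV3 RNA a smaller part, in OTX2 knockout cells. Summed CaV2 RNA was 0.740, 0.721 and 0.753 RPKM in OTX2 knockout libraries, against 0.457, 0.358 and 0.435 RPKM in control libraries. Summed CaV3 RNA was 3.13, 3.02 and 3.36 RPKM in OTX2 knockout libraries, against 4.55, 4.21 and 4.15 RPKM in control libraries. The groups did not overlap for either class. The ratio of CaV2 to CaV3 RNA was 0.237, 0.239 and 0.224 in OTX2 knockout libraries, against 0.1004, 0.0851 and 0.105 in control libraries. CaV2 genes made up 10.8 ± 0.171% of the summed RPKM of the 9 genes in OTX2 knockout and 4.95 ± 0.471% in control libraries (SD, n = 3 each). Most of this share was CACNA1B, at 9.88% in OTX2 knockout and 4.69% in control libraries. The share of CaV3 genes was 46.1 ± 0.996% in OTX2 knockout and 51.3 ± 0.934% in control libraries. Within CaV3, the share of CACNA1G was 27.6% in OTX2 knockout and 32.6% in control libraries. That of CACNA1I was 18.4% in OTX2 knockout and 18.6% in control libraries, and its ranges overlapped. The CaV1 genes among the 9, nearly all of it CACNA1F, held 43.1 ± 0.888% in OTX2 knockout and 43.8 ± 0.767% in control libraries. The ranges of the groups overlapped. The sum over all 9 genes was 6.87 ± 0.232 RPKM in OTX2 knockout and 8.40 ± 0.352 RPKM in control libraries. The summed RNA of these 9 genes was thus lower in OTX2 knockout cells. CACNA1S, a CaV1 gene outside the 9, is in none of these sums. It averaged 5.79 CPM in OTX2 knockout and 4.58 CPM in control libraries over 6.17 kb of merged exons. Class shares and the total would differ with CACNA1S included, and were not computed that way. These class sums follow from the gene values above and were given no test of their own.

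**Figure D2:**
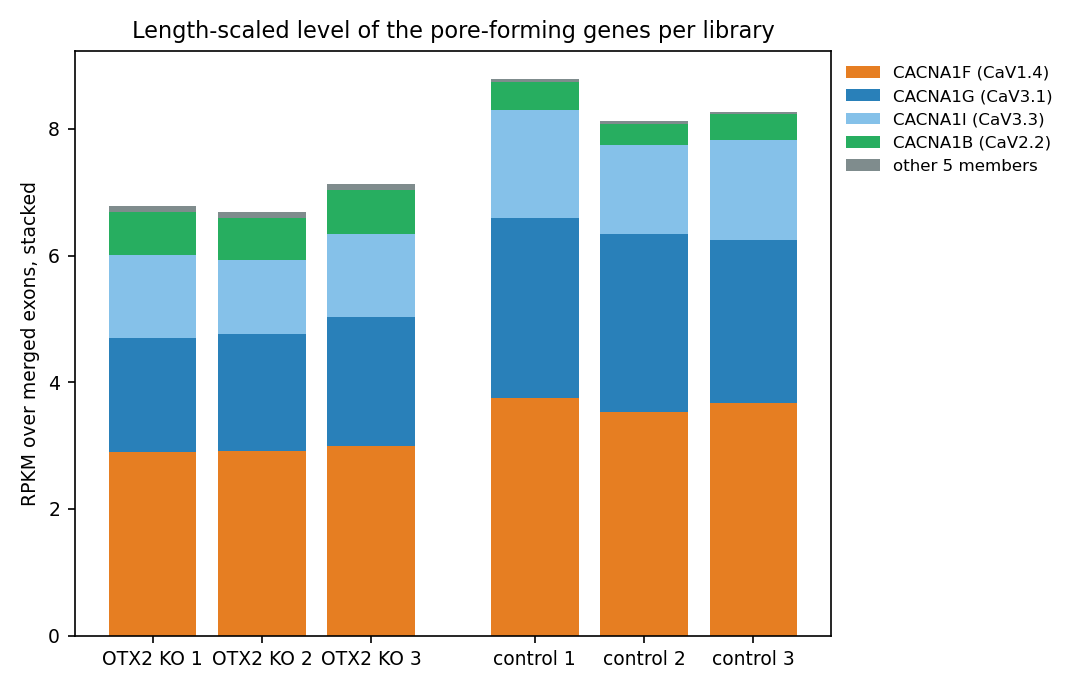
Length-scaled level (RPKM over merged exons, stacked) of CACNA1F, CACNA1G, CACNA1I, CACNA1B and the other 5 members in each OTX2 knockout and control library. Columns reach 6.68 to 7.13 RPKM in OTX2 knockout and 8.12 to 8.79 RPKM in control libraries, and the CACNA1B segment is thicker in OTX2 knockout.

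The remaining human alpha-1 gene, CACNA1S, is not among the 9 and encodes CaV1.1 of skeletal muscle. CACNA1S had 5.495, 5.76 and 6.11 CPM in OTX2 knockout libraries, against 4.57, 4.96 and 4.22 CPM in control libraries. It rose 1.26-fold, with a log2 fold change of 0.33 (edgeR quasi-likelihood adjusted p = 0.0091). Of 7 tested skeletal muscle markers, 6 rose and 0 fell, where 21.2% of all tested genes rose. The summed level of the skeletal muscle markers was 24.1 to 26.8 CPM in OTX2 knockout and 12.5 to 16.5 CPM in control libraries. Their part in the CACNA1S value was not tested.

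The auxiliary subunits, which set the surface level and gating of CaV1 and CaV2 pores, also moved in both directions. Of 16 listed genes, 11 were tested, 7 rose and 3 fell, and their log2 fold changes had a median of 0.32, against 0.0062 for all tested genes. Of all tested genes, 21.2% rose and 18.5% fell. CACNG4, 1 of the 7 rises, passed the filter only through its OTX2 knockout libraries, so its call adds nothing to that count. CACNA2D2, an alpha2delta subunit and a target of gabapentin, had 18.4, 18.6 and 17.3 CPM in OTX2 knockout libraries, against 0.487, 0.542 and 0.506 CPM in control libraries, a 35.4-fold rise. Its exons overlap the locus listed as CYB561D2 on the opposite strand, so its count is uncertain. CACNA2D3 fell 1.97-fold, with 2.47 ± 0.0855 CPM in OTX2 knockout and 4.88 ± 0.486 CPM in control libraries. CACNA2D4, the alpha2delta subunit that accompanies CaV1.4 in photoreceptors, rose 1.25-fold, with 20.96, 23.4 and 23.4 CPM in OTX2 knockout libraries, against 18.5, 18.0 and 17.9 CPM in control libraries. It thus moved opposite to CACNA1F. CACNA2D1 did not pass the test, at 11.3 ± 0.0991 CPM in OTX2 knockout and 10.4 ± 1.22 CPM in control libraries (SD, n = 3 each), and it passed without control replicate 1 (edgeR quasi-likelihood adjusted p = 0.0388).

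Of the beta subunits, which bind the linker between the first domains of CaV1 and CaV2 pores, CACNB3 changed most. CACNB3, the partner of many N-type channels, rose 1.70-fold, with 12.8 ± 0.913 CPM in OTX2 knockout and 7.55 ± 0.552 CPM in control libraries. CACNB2, the beta subunit of cardiac and photoreceptor L-type channels, had 50.3, 51.9 and 54.1 CPM in OTX2 knockout libraries, against 58.8, 58.1 and 58.1 CPM in control libraries. It fell 1.12-fold (edgeR quasi-likelihood adjusted p = 0.0115), and the call was lost with library totals alone (0.150) and without OTX2 knockout replicate 1 (0.0613) or 2 (0.0529). CACNB1 rose 1.18-fold, a call lost without OTX2 knockout replicate 1 (edgeR quasi-likelihood adjusted p = 0.0582). CACNB4, a cerebellar beta subunit, had 25.6, 22.9 and 33.5 CPM in OTX2 knockout libraries, against 24.95, 19.7 and 20.8 CPM in control libraries, and the groups overlapped. Its adjusted p was 0.0338 by edgeR's quasi-likelihood test, and the call was lost with DESeq2 (0.223) and without OTX2 knockout replicate 3 (0.212), control replicate 2 (0.150) or control replicate 3 (0.0729).

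The gamma subunit family holds true calcium channel subunits and several proteins that instead traffic AMPA receptors. CACNG2, the AMPA receptor protein stargazin, rose 1.35-fold, with 11.2 ± 0.467 CPM in OTX2 knockout and 8.26 ± 0.504 CPM in control libraries. CACNG5, another AMPA receptor regulator, fell 1.82-fold, with 21.8 ± 0.722 CPM in OTX2 knockout and 39.6 ± 0.401 CPM in control libraries (SD, n = 3 each). CACNG4 had 36, 31 and 21 counts in OTX2 knockout libraries, against 5, 1 and 5 counts in control libraries, and rose with a log2 fold change of 2.79 (SE 0.44). CACNG3 had 19 counts in OTX2 knockout and 0 in control libraries, at least 5.63-fold higher when the control group is set to the floor of 3 counts. CACNG1 and CACNG6, subunits of muscle channels, and CACNG7 and CACNG8 had at most 4 counts each over all libraries.

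**Figure D3:**
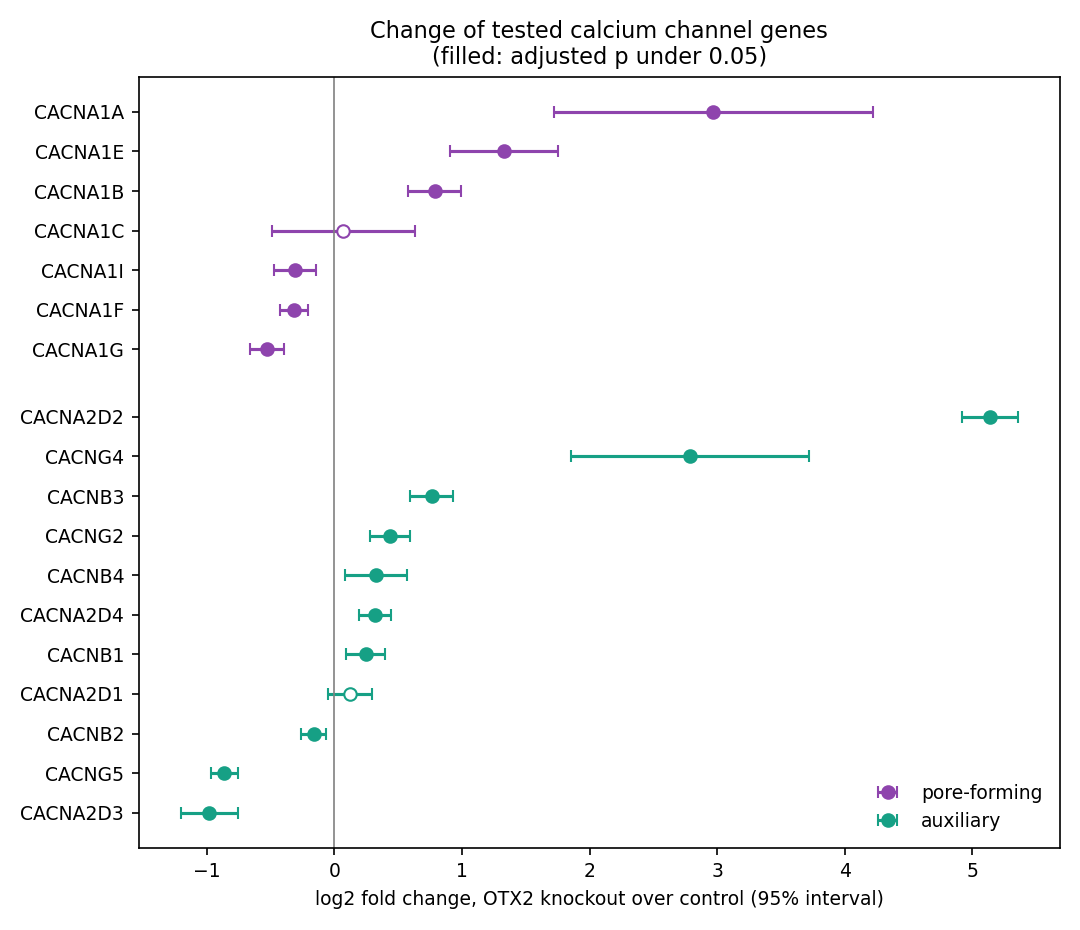
Log2 fold change of OTX2 knockout over control with its 95% interval for the 7 tested pore-forming genes and the 11 tested auxiliary genes, each group sorted by size. Filled points passed an adjusted p of 0.05. CACNA1A, CACNA1E and CACNA1B lie right of 0, CACNA1I, CACNA1F and CACNA1G lie left of 0, and CACNA2D2 lies farthest right at 5.14.

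Proteins that bind calcium channels were split. Of 21 listed, 19 were tested, 7 rose and 6 fell (median log2 fold change 0.12), where 21.2% of all tested genes rose and 18.5% fell. The RGK GTPase GEM, which lowers calcium current when bound to beta subunits, rose 2.79-fold, with 7.32 ± 0.711 CPM in OTX2 knockout and 2.63 ± 0.287 CPM in control libraries. AKAP5, which anchors protein kinase A and calcineurin beside L-type channels, fell 2.88-fold. CRMP1 rose 8.75-fold from 21 counts in control libraries, but its exons overlap EVC, and its count is uncertain. CRMP1 also passed the filter only through OTX2 knockout libraries.

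Presynaptic proteins that meet CaV2 channels at the active zone changed in both directions. Of 17 listed, 16 were tested, 8 rose and 5 fell (median 0.55), where 21.2% of all tested genes rose and 18.5% fell. UNC13A, which primes synaptic vesicles, rose 3.14-fold, with 20.5 ± 0.926 CPM in OTX2 knockout and 6.55 ± 0.981 CPM in control libraries. STX1A, the syntaxin that binds CaV2 channels directly, rose 3.16-fold, with 16.8 ± 0.971 CPM in OTX2 knockout and 5.33 ± 0.745 CPM in control libraries. SNAP25 rose 2.23-fold and RIMS3 1.83-fold, both without overlap between groups. Scaling by library totals alone gave 3 falls in this list, and 5 genes rose with at least 1 CPM in at least 3 libraries, where fewer genes were tested. Neuron markers moved with the CaV2 genes: of 8 tested, all 8 rose, where 21.2% of all tested genes did. The summed level of the neuron list was 191 to 221 CPM in OTX2 knockout and 67.4 to 82.7 CPM in control libraries. SNAP25 is in this list and in the active zone list, so its rise is counted in both. TUBB3, a defining neuron marker, was at 0 in all libraries. The counter and annotation were not given, so that 0 is uncertain and does not show that TUBB3 RNA was absent. Of those 8, ELAVL4 and RBFOX3 passed the filter only through OTX2 knockout libraries. Both are also in the list of splicing factors. Endocrine markers rose too, 4 of 4 tested, PCSK1 among them only through its OTX2 knockout libraries, and summed to 18.0 to 21.2 CPM in OTX2 knockout and 4.52 to 5.20 CPM in control libraries, with INS at 0. The part of these markers in the CaV2 values was not tested.

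Channels and pumps that act on the calcium which enters were described in the same way. Over all tested genes, 21.2% rose and 18.5% fell. Of 6 tested calcium-activated potassium channel genes, 3 rose and 1 fell (median 0.38). KCNMA1, the BK channel pore, fell 1.56-fold, with 33.4 ± 2.55 CPM in OTX2 knockout and 52.1 ± 6.197 CPM in control libraries, and its neuronal beta subunit KCNMB4 rose 1.74-fold. The small-conductance channel genes KCNN1 and KCNN3 rose 1.33-fold and 1.24-fold. Of 19 tested genes of calcium stores, pumps and exchangers, 9 rose and 1 fell (median 0.24). RYR2, a ryanodine receptor that releases stored calcium, rose 4.95-fold, with 23.9 ± 1.72 CPM in OTX2 knockout and 4.83 ± 0.790 CPM in control libraries. The sodium-calcium exchanger SLC8A1 rose 1.61-fold and the store channel ITPR2 1.63-fold. ATP2B2, a calcium pump of cerebellar neurons, had 132 counts in OTX2 knockout and 1 count in control libraries, and the 95% counting interval of their scaled ratio ran from 20.7 to 4666. It passed the filter only through OTX2 knockout libraries. Of 5 other tested cation channel genes, 2 rose and 0 fell (median 0.017), TPCN1 of lysosomes 1.51-fold and the sodium leak channel NALCN with 58 counts in OTX2 knockout and 10 in control libraries. NALCN passed the filter only through OTX2 knockout libraries, and the share called in this list was near the 39.7% of all tested genes. In that list 1 gene fell without control replicate 1.

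Factors known to splice neuronal transcripts, calcium channels among them, were counted beside the 21.2% of all tested genes that rose and the 18.5% that fell. Of 9 tested, 5 rose and 2 fell (median 0.20), but 3 of the 5 rises, RBFOX3, ELAVL4 and NOVA2, passed the filter only through OTX2 knockout libraries and add nothing to the count. RBFOX3 rose 20.3-fold, with 252 counts in OTX2 knockout and 11 in control libraries, and ELAVL3 rose 6.99-fold. ELAVL4 had 251 counts in OTX2 knockout and 0 in control libraries, 74.3-fold higher when the control group is set to 3 counts. NOVA2 rose 5.23-fold. No gene of the list fell with library totals alone, with upper-quartile factors, or without OTX2 knockout replicate 1 or 2, and 4 rose without OTX2 knockout replicate 2. Isoforms could not be followed in counts per gene.

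REST, which silences neuronal channel genes in cells that are not neurons, was named after its value was seen. It had a log2 fold change of -0.045 and an edgeR quasi-likelihood adjusted p of 0.552, and the sign turned with library totals alone (0.033) and without control replicate 1 (0.0056). Its exons share 23 of their 7983 bases with NOA1 on the opposite strand, so its count is uncertain by the reads that fall there. Of 8 tested genes of REST and its corepressors, 2 rose and 1 fell (median -0.0090). The share called in this list was near the 39.7% of all tested genes. RCOR2 rose 1.34-fold, KDM1A 1.12-fold and HDAC2 fell 1.13-fold. The KDM1A call was lost without OTX2 knockout replicate 2 and the HDAC2 call with library totals alone, and 2 genes fell without control replicate 3. HDAC1 had 106 ± 2.38 CPM in OTX2 knockout and 97.8 ± 0.900 CPM in control libraries, with an edgeR quasi-likelihood adjusted p of 0.0531. HDAC1 passed with at least 1 CPM in at least 3 libraries (adjusted p = 0.0201), library totals alone (0.00194), limma-voom (0.0458) and upper-quartile factors (0.0246).

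**Figure D4:**
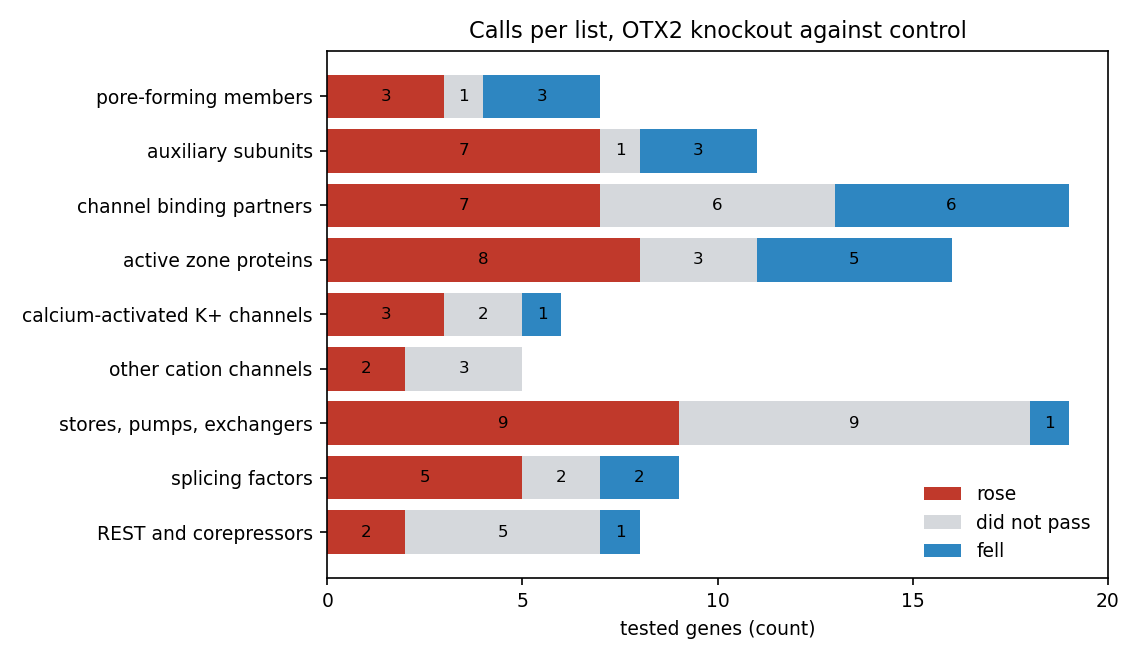
Number of tested genes in each list that rose, did not pass or fell in OTX2 knockout against control (edgeR quasi-likelihood test, adjusted p under 0.05). The pore-forming members split 3, 1 and 3, and the auxiliary subunits 7, 1 and 3.

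Markers of other cell types that express calcium channels were also counted in these cultures of 1 line. Over all tested genes, 21.2% rose and 18.5% fell. Of the heart and smooth muscle markers, 3 of 9 reached the test, 2 rose and 0 fell, MYL7 was at 0, and the list summed to 2.96 to 3.69 CPM in OTX2 knockout and 1.84 to 2.06 CPM in control libraries. Immune markers summed to 0.792 to 0.879 CPM in OTX2 knockout and 1.15 to 1.19 CPM in control libraries, with CD3E at 0, and of 4 tested 1 rose and 1 fell, each having passed the filter only through the group where it was higher. Astroglia markers summed to 315 to 362 CPM in OTX2 knockout and 224 to 261 CPM in control libraries, where 1 of 4 tested rose and 1 fell. Fibroblast markers summed to 29.1 to 29.6 CPM in OTX2 knockout and 19.2 to 20.7 CPM in control libraries, and 3 of 5 tested rose and 0 fell. Endothelial markers summed to 5.45 to 6.47 CPM in OTX2 knockout and 2.53 to 3.88 CPM in control libraries, and 2 of 3 tested rose and 0 fell. In each of these last 2 lists, 1 rise, DCN and PECAM1, passed the filter only through OTX2 knockout libraries. The part of these markers in the pore-forming values was not tested.

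The genes whose profile over the 6 libraries was closest to the 3 members with the smallest adjusted p were found by root mean square distance of log2 CPM, each profile centred on its own control mean. For CACNA1G these were CALCOCO2, SMAD3 and ZDHHC23, at distances of 0.014, 0.019 and 0.028. CALCOCO2 had 90.8, 93.3 and 100.5 CPM in OTX2 knockout libraries, against 143, 141 and 129 CPM in control libraries. For CACNA1B the nearest were ZNF611, RP1-293L6.1 and ELFN1, at distances of 0.066, 0.068 and 0.073. For CACNA1E they were PLXDC2, PARM1 and the potassium channel gene KCNC4, at distances of 0.033 to 0.066. KCNC4 had 33.8, 31.6 and 33.5 CPM in OTX2 knockout libraries, against 14.1, 12.5 and 13.8 CPM in control libraries. These genes share the libraries and their scaling with the members, and the distance describes likeness over 6 points.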

How the data were processed

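RNA of 6 D283 cultures was sequenced. The authors deposited unnormalized counts per gene symbol, and per the submitters' processing notes the tools and build include STAR and hg38. The counter, annotation, strand setting and filters were not given in the sources used here. Of 50883 symbols, 17682 were at 0 in all libraries. Depending on the library, 3 counts equalled 0.0471 to 0.0563 CPM, and counting intervals and floors cover counting error only.

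Groups were compared with edgeR 4.0.16 in R 4.3.3 (filterByExpr, TMM scaling, quasi-likelihood F test), with p-values adjusted by Benjamini-Hochberg over 18420 tested genes. The biological coefficient of variation was 5.30%, with 4 residual degrees of freedom. CPM is on TMM-scaled library sizes, folds are ratios of mean CPM, and RPKM divides CPM by merged exon length in GENCODE release 29. For list genes described singly, exon overlaps are stated where the other gene holds over 10% of the gene's count. The filter asked for the equivalent of 10 counts at the median library size in 3 libraries, and a gene passed only through a group when the other group's libraries did not meet this by themselves. RefSeq synonyms placed 2 list genes under older symbols.

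The members and gene lists were chosen with earlier results of these data known. Named genes were all members, OTX2, tested auxiliary genes, up to 4 genes of each other list by smallest adjusted p, and 3 nearest profiles for each of 3 members (mean count of at least 100, prior count 0.5). REST, CACNA1S, UNC13B, ERC2, untested auxiliary genes, markers at 0 and some genes that passed the filter through 1 group were named besides. Some genes that the rule names are not reported here. Alternatives were other scalings, filters, DESeq2 1.42.0, limma-voom (limma 3.58.1), a threshold of 0.01 and leaving out each library. Scripts were tested on simulated data.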

Additional observations from a re-analysis of the deposited data

How the results depend on the processing

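All 6 pore-forming calls kept their direction and stayed past the threshold under every alternative that tested them. For CACNA1A this adds no support, because it passed the filter only through its OTX2 knockout libraries. Log2 fold changes ranged from 2.38 to 3.38 for CACNA1A, 0.68 to 0.86 for CACNA1B, 1.24 to 1.41 for CACNA1E, -0.34 to -0.24 for CACNA1F, -0.59 to -0.45 for CACNA1G and -0.39 to -0.23 for CACNA1I, whose largest adjusted p, with library totals alone, was 0.0435. With at least 1 CPM in at least 3 libraries, CACNA1A and CACNA1E were not tested, leaving 1 rise and 3 falls. CACNA1C, not called in any setting, ranged from -0.078 to 0.32 and turned negative without OTX2 knockout replicate 1 (-0.026), control replicate 2 (-0.078) or control replicate 3 (-0.0093). With the longest transcript in place of merged exons, the class levels in OTX2 knockout were 3.38 (CaV1), 0.771 (CaV2) and 3.64 (CaV3) RPKM, and in control 4.20 (CaV1) and 4.96 (CaV3) RPKM, because the lengths are shorter.

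Over all genes, 7312 changed, 5897 to 7514 when a library was left out. Library totals alone gave 5210 rises and 2034 falls, against 3908 and 3404 with TMM, and moved the median log2 fold change of all genes to 0.085. Of 11 tested auxiliary genes, 10 were called, and 8 to 11 when a library was left out, where CACNA2D1 was gained without control replicate 1. The genes at low counts, CACNA1A, CACNA1C, CACNA1D and CACNA1H, are limited by depth. No paired analysis was possible because the labels number the libraries in 1 run and give the groups no shared replicate numbers.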
